A study of Rattus norvegicus with 30 samples.

Results

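The DNA methylation landscape of the young medial prefrontal cortex (mPFC) was examined in the 10 young rats among the 30 rats of the study. Cytosines were included in which at least 5 young rats had a methylation value, which left 47702 of 85484 CpG sites, 142888 of 266960 CHG sites and 374176 of 707223 CHH sites (H is A, C or T). The young rats were male Fischer 344 animals aged 5 to 6 months, an inbred strain, and they had been food restricted and tested on a set shifting task of cognitive flexibility before the prelimbic and infralimbic cortex was collected 2 weeks later. Aged rats were not compared with them. Each library came from 1 rat and from whole tissue, so that neurons, glia and vessels were measured together.

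In mammals, DNA methyltransferases add a methyl group to cytosine, mainly where a guanine follows (CpG). Most CpGs of the genome are methylated, CpG-rich promoters of active genes are usually not, and DNMT1 copies the mark to the new strand because the CpG reads the same on both strands. Adult neurons also carry non-CpG methylation, which is written by DNMT3A and has no such copying step. Mitochondrial DNA is a small circular genome without histones, and whether it is methylated at all has been debated. In whole genome bisulfite sequencing (WGBS) an unmethylated cytosine is read as thymine, and the ratio at a site is the share of reads that still show cytosine, from 0 to 1. A cytosine that failed to convert is also counted as methylated, and the rate of conversion was not computed here. The lower bound on it that the study states for its libraries would allow a share of unconverted cytosines above the autosomal CHG and CHH levels given here, so at those levels methylation and failed conversion cannot be told apart. The study gives this bound for each library as a whole and not for mitochondrial DNA. How much of the mitochondrial ratios is failed conversion was not tested.

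The sites were unevenly spread over the genome. By the study's own counts, most of all CpG sites called for the age comparison lay in repeats, mainly LINE elements. Few lay in CpG islands, so the levels below are not those of an even sample of the genome. Of the CpG sites, 44142 lay on autosomes, 3055 on chromosome X and 505 on mitochondrial DNA. The corresponding numbers were 132928, 9325 and 635 for CHG and 345741, 24925 and 3510 for CHH. The median gap between neighbouring autosomal CpG sites was 31 bp, yet 17.6% of the gaps were over 10 kb, and the 1% of 10 kb windows with the most sites held 16.8% of the CpG sites. The number of CpG sites with a value ranged from 21129 to 43195 per rat (median 38335.5), and the read depth behind a ratio is unknown beyond the minimum of 5 reads. The identifiers of the rats form 3 runs of numbers whose meaning is not given, here called series A (3 rats), B (3 rats) and C (4 rats), and the rats of series A had the most uniform coverage, with 39692 to 43195 CpG sites.

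Autosomal CpG sites were mostly methylated and autosomal CHG and CHH sites were mostly not. Averaged over its sites, a rat had a CpG ratio of 0.701 ± 0.0045 (SD, n = 10), with a lowest rat at 0.695, a median of 0.701 and a highest rat at 0.710. The mean CHG ratio was 0.0221 ± 0.00051 (SD, n = 10), from 0.0213 to 0.0228. The mean CHH ratio was 0.0161 ± 0.00030 (SD, n = 10), from 0.0155 to 0.0165. The autosomal levels therefore varied little between rats in each context. When each cluster of sites was reduced to 1 site, with clusters split at gaps of 1000 bp or more, the CHG level was 0.0312 and the CHH level 0.0278. In all 10 rats the CHG level was above the CHH level, by 0.00596 ± 0.00050 (SD; exact sign-flip permutation test within rats, 2-sided, p = 0.00195, adjusted p = 0.00244 over 10 differences). This is the smallest p that 10 rats allow. The median ratio over a rat's sites was 0 for both contexts, so the means were set by the sites above 0.

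The CpG distribution had its peak between 0.7 and 0.9, where 50.4% of the autosomal sites lay. A further 14.6% had a mean ratio of 0.9 or more, 26.0% lay between 0.3 and 0.7, and 4.49% were at 0.1 or less. These are shares of site means over rats. Within single rats, 38.1% of the sites lay between 0.7 and 0.9 and 23.3% at 0.9 or more, on average over the 10 rats. The median SD between rats was 0.152 in the class of 0.3 to 0.7, against 0.0559 at 0.1 or less and 0.0808 at 0.9 or more. A bounded ratio from few reads varies most at middle levels in any case, so this order says nothing about the rats. For CHG, 96.5% of the autosomal sites were at 0.1 or less and 44.9% were at 0 in every young rat with a value. For CHH these shares were 97.4% and 54.6%. Within single rats the share at 0.1 or less was lower, on average 91.9% for CHG and 94.1% for CHH.

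**Figure D1:**
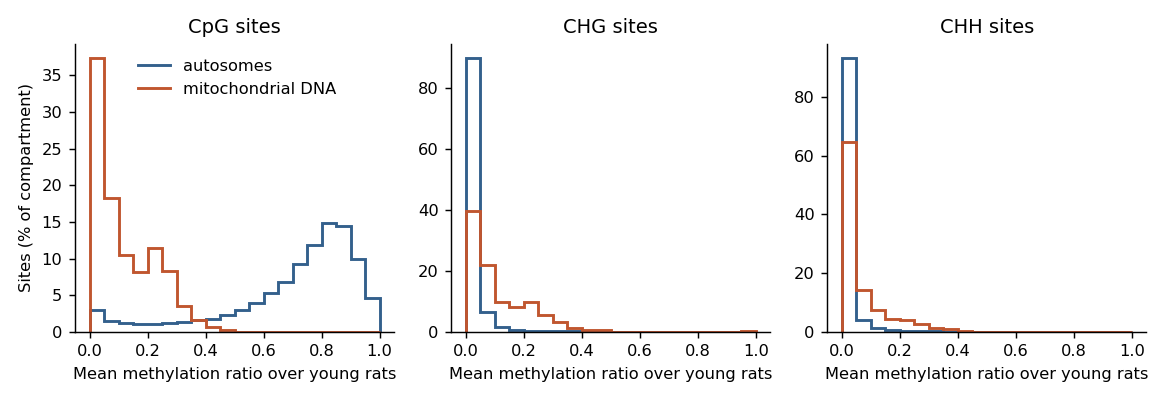
Distribution of the mean methylation ratio over young rats (x axis, bins of 0.05) as the percentage of sites of each compartment (y axis), for CpG, CHG and CHH sites on autosomes (blue) and mitochondrial DNA (orange). Autosomal CpG sites peak at high ratios, whereas mitochondrial sites of all 3 contexts lie mostly under 0.3, and a larger share of mitochondrial than of autosomal CHG and CHH sites lies above 0.1.

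A small share of the non-CpG sites had high ratios. The number of autosomal sites did not fall steadily to the end of the range. It was 45 for CHG and 49 for CHH at 0.9 to 0.95, and 52 and 98 at 0.95 to 1. On autosomes, 508 of 132928 CHG sites (0.382%) and 894 of 345741 CHH sites (0.259%) had a mean ratio of 0.5 or more. They carried 12.6% and 11.3% of the summed ratio of their context. At 305 of these CHG sites and 459 of these CHH sites, every young rat with a value was at 0.5 or more. They were scattered, with the 508 CHG sites in 466 different 10 kb windows and at most 5 in 1 window. Next to a deposited CpG site were 47 of the 508 CHG sites (9.25%), beside 9.85% of all autosomal CHG sites, and 1 of the 894 CHH sites (0.112%), beside 0.490% of all autosomal CHH sites. Across autosomal sites, r between pairs of rats had a median of 0.621 for CHG and 0.584 for CHH over 45 pairs, as a description, and the same few high sites enter every pair.

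CpG level differed with how many CpGs surrounded a site. Dense CpGs are found in CpG islands, which are typically unmethylated, but most called CpG sites of the study lay in repeats. Whether the dense sites here belong to islands or to repeats was not determined. Sites with 11 or more other CpG sites within 100 bp had a mean ratio of 0.588 ± 0.0096 (SD, n = 10 rats), and 11.7% of them were at 0.1 or less. Sites with 3 to 5 others had a mean of 0.724 ± 0.0059, and 3.39% of them were at 0.1 or less. Sites with none lay between these, at 0.689 ± 0.0062. The highest rat of the densest class (0.602) was below the lowest rat of the class with none (0.678). Only sites with 5 or more young values were counted as neighbours, so the count understates the true density. CpG level also fell with coverage, from a mean of 0.710 at the 10030 autosomal sites with 5 young values to 0.691 at the 8277 sites with all 10.

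The mean levels of the autosomes differed from each other. The SDs given here are over rats and do not cover which sites were called on a chromosome. The order was not recomputed with 1 site per cluster or without the densest windows. Chromosome 9 had the lowest CpG level (0.626 ± 0.014, SD, n = 10 rats, 2642 sites), followed by chromosome 14 (0.667 ± 0.0071). Chromosome 16 had the highest (0.754 ± 0.0080, 1573 sites), and its neighbour in the order, chromosome 10 (0.751 ± 0.011), lay within its spread over rats. The order was not the same for non-CpG sites. Chromosome 16 had the lowest CHG (0.0193 ± 0.0012) and the lowest CHH level (0.0132 ± 0.00062), and for CHG chromosome 10 (0.0195 ± 0.0014) lay within its spread. Chromosome 19 had the highest of both (0.0264 ± 0.0012 and 0.0230 ± 0.0017), with chromosome 12 next for CHG at 0.0251 ± 0.0012.

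Single windows marked the ends of the range (10 kb windows with at least 10 sites, rn5 coordinates). The lowest CpG level was at chr13:95680001-95690000, where 47 sites had a mean of 0.0313 and the rats lay between 0.0110 and 0.0525. A pair of windows on chromosome 9, chr9:7320001-7330000 and chr9:11340001-11350000, followed with means of 0.0802 and 0.0805. The median of the 887 such windows was 0.735. All 3 were low in every rat, with the highest rat at 0.133. The highest CpG level was at chr15:97150001-97160000 (0.996, 10 sites within 97156969 to 97156991, 7 rats), followed by chr19:62170001-62180000 (0.967) and chr7:117150001-117160000 (0.939, 42 sites, 10 rats).

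The windows with the most CHG methylation and those with the most CHH methylation were listed separately. For CHG they were chr5:102690001-102700000 (0.145, 11 sites), chr8:38530001-38540000 (0.117, 10 sites) and chr1:230390001-230400000 (0.117, 16 sites), beside a median of 0.0181 over 3367 windows. Their CHH levels were 0.00647, 0.0207 and 0.0102. For CHH they were chr1:256570001-256580000 (0.0911, 24 sites), chr7:82930001-82940000 (0.0848, 14 sites) and chr14:28260001-28270000 (0.0792, 30 sites), beside a median of 0.0132. Rats ranged from 0 to 0.25 in the first CHG window, so these few sites were variable. No window was named for both contexts. So few windows out of 3367 would rarely coincide by chance, so nothing is concluded from the lack of overlap.

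Mitochondrial DNA differed from the autosomes in both directions: its CpG level was lower, and its CHG and CHH levels were higher. The mitochondrial CpG ratio was 0.128 ± 0.052 (SD, n = 10), from 0.0721 to 0.244 with a median of 0.110. The autosomal level was higher in all 10 rats, by 0.573 ± 0.050. The mitochondrial CHG ratio was 0.118 ± 0.044 (median 0.106, range 0.0682 to 0.218), which was 5.33 times the autosomal level and higher in all 10 rats. The mitochondrial CHH ratio was 0.0776 ± 0.039 (median 0.0650, range 0.0387 to 0.161), which was 4.81 times the autosomal level and again higher in all 10 rats. Both folds would be smaller against the autosomal levels with 1 site per cluster, a setting that was not run for these differences. In none of these 3 comparisons did the autosomal and mitochondrial values overlap. Each had p = 0.00195 (exact sign-flip permutation test, 2-sided) and an adjusted p of 0.00244.

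On mitochondrial DNA the CpG level was close to the CHG level, whereas CHG and CHH lay farther apart than on autosomes. CpG exceeded CHG there by 0.00979 ± 0.0086, CpG exceeded CHH by 0.050 ± 0.014 and CHG exceeded CHH by 0.0402 ± 0.0083 (SD; each in 10 of 10 rats, exact sign-flip permutation test, adjusted p = 0.00244). No mitochondrial CpG site reached 0.5, and 55.6% were at 0.1 or less.

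**Figure D2:**
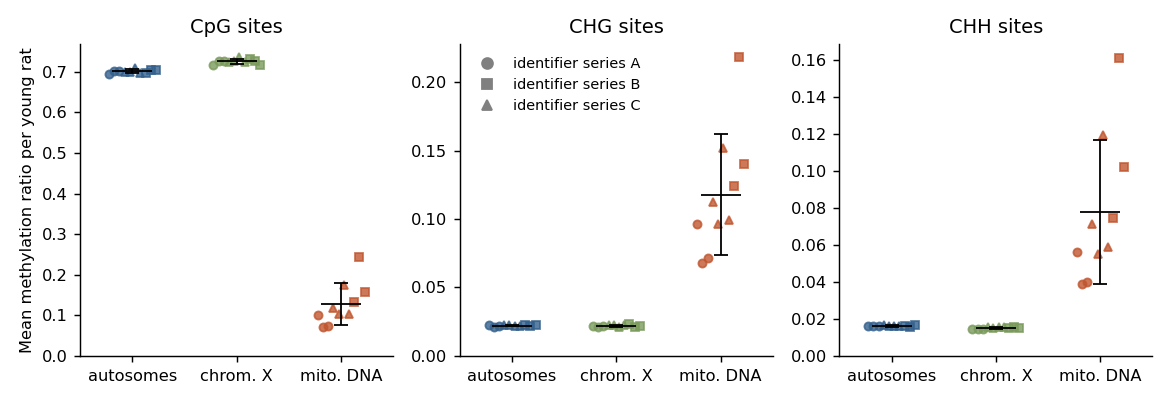
Mean methylation ratio of each young rat (y axis, a different linear scale in each panel) on autosomes, chromosome X and mitochondrial DNA (x axis) for CpG, CHG and CHH sites. Symbols mark the 3 identifier series and black bars the mean ± SD over 10 rats. The mitochondrial values run from 0.0721 to 0.244 for CpG and spread far more than the autosomal ones.

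The mitochondrial level differed between rats far more than the autosomal level, and the same rats were high in all 3 contexts. Young rat 9 (series B) was the highest, with 0.244 for CpG, 0.218 for CHG and 0.161 for CHH. Rat 6 (series C) followed with 0.173, 0.152 and 0.119. Rats 2 and 3 (series A) were the lowest, at 0.0721 and 0.0726 for CpG. Series A averaged 0.0816 for CpG, series C 0.124 and series B 0.178, and no rat of series A (highest 0.10) reached the lowest of the other series (0.102). Coverage moved with the level: rat 9 had a value at 403 and rat 6 at 390 of the 505 mitochondrial CpG sites, against 505 in rats 2 and 3. Where all 10 rats had a value, the mean levels were 0.140 for CpG, 0.129 for CHG and 0.0961 for CHH. Within each series the mitochondrial CHG level remained above the autosomal one, by 0.0570 in A, 0.139 in B and 0.0927 in C on average. The part of coverage in the differences between rats was not tested.

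The ratios along the mitochondrial genome were uneven. In bins of 1 kb with at least 10 sites, the CpG level was lowest at chrM:2001-3000 (0.0538 ± 0.029, SD over rats, 46 sites) and highest at chrM:11001-12000 (0.284 ± 0.071, 11 sites). CHG was also lowest at chrM:2001-3000 (0.0508 ± 0.020) and highest at chrM:10001-11000 (0.25 ± 0.074). CHH was lowest at chrM:14001-15000 (0.0419 ± 0.021) and highest at chrM:11001-12000 (0.164 ± 0.072). The levels of the bins were correlated between contexts, with r of 0.887 for CpG with CHG (15 bins), 0.934 for CpG with CHH (16 bins) and 0.887 for CHG with CHH (15 bins), given as descriptions over bins of the same libraries.

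The 2 strands of a CpG can be compared where 2 CpG sites lie 1 bp apart, and those of a CHG where 2 sites lie 2 bp apart. This comparison was chosen after the values were seen, and the strand is inferred from the spacing, since the calls carry none. The lower position is then the cytosine of the forward strand. On autosomes, 3983 CpG pairs had means of 0.699 ± 0.0071 and 0.705 ± 0.0092 (SD, n = 10 rats) at the lower and the higher position, and r over pairs was 0.685 ± 0.045 per rat. On mitochondrial DNA, 198 pairs had 0.0536 ± 0.036 at the lower and 0.141 ± 0.049 at the higher position. The higher position had the higher mean in all 10 rats, by 0.0869 ± 0.018 (exact sign-flip permutation test, 2-sided, p = 0.00195, adjusted p = 0.0039 over 4 comparisons), and in 158 of the 198 pairs. The values of the 2 positions showed no relation there, with r of -0.035 ± 0.11 per rat.

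The mitochondrial CHG pairs also had the higher mean at the higher position. On mitochondrial DNA, 205 CHG pairs had 0.0551 ± 0.022 at the lower and 0.133 ± 0.045 at the higher position, with the higher position above the lower in all 10 rats (exact sign-flip permutation test, adjusted p = 0.0039). On autosomes, 9412 CHG pairs had 0.0222 ± 0.00078 and 0.0224 ± 0.00067, with r over pairs of 0.00094 ± 0.014 and no difference past the threshold (exact sign-flip permutation test, adjusted p = 0.477). Under other coverage rules that autosomal CHG difference passed the test in opposite directions, at -0.0013 with at least 8 rats per site (adjusted p = 0.0026, exact test) and 0.0019 with all 10 (adjusted p = 0.0104, exact test). The autosomal CpG difference of 0.00575 ± 0.0055 (8 of 10 rats, exact sign-flip permutation test, adjusted p = 0.0156) was no longer past the threshold with at least 8 rats per site (0.0051), with all 10 (0.00063), without series A (0.0047) or without series C (0.0042; exact test, adjusted p from 0.104 to 0.828). Without series C, the mitochondrial differences were 0.0847 for CpG and 0.0792 for CHG, each with p = 0.03125, the smallest that an exact sign-flip test of 6 rats allows, and an adjusted p of 0.0625.

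**Figure D3:**
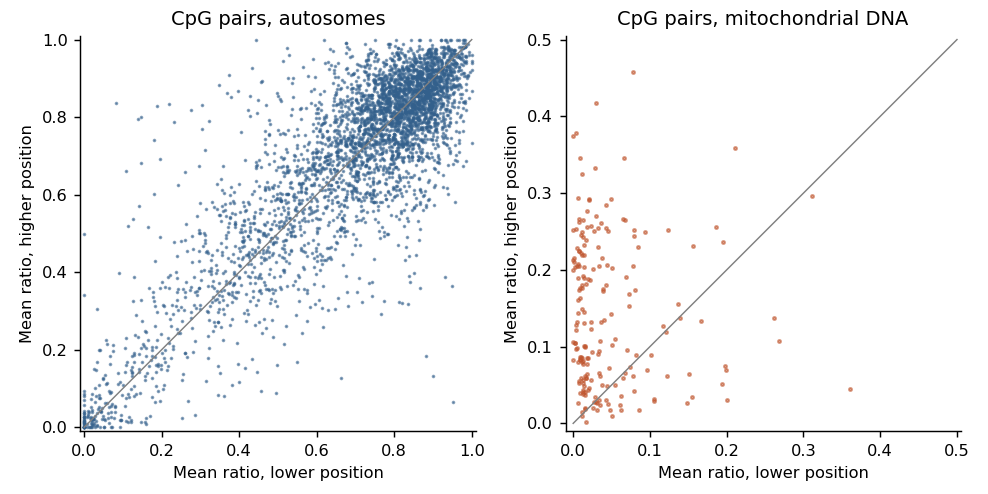
Mean ratio over young rats of CpG pairs 1 bp apart, with the lower position on the x axis and the higher position on the y axis, for 3983 autosomal pairs (left, 0 to 1) and 198 mitochondrial pairs (right, 0 to 0.5). The grey line marks equal ratios. Autosomal pairs follow the line, whereas 158 of the mitochondrial pairs lie above it.

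Chromosome X, which these male rats carry in 1 copy, had a CpG level of 0.725 ± 0.0059 (SD, n = 10), and it was above the autosomes in all 10 rats, by 0.0244 ± 0.0060 (exact sign-flip permutation test, adjusted p = 0.00244). Autosomes minus chromosome X was -0.00517 (adjusted p = 0.371 in the same exact test) with 1 site per cluster and -0.00362 (adjusted p = 0.0629) without the densest windows. CHH was lower on chromosome X, at 0.0151 ± 0.00050, in 9 of 10 rats (exact sign-flip permutation test, adjusted p = 0.00434). With 1 site per cluster the sign turned. Without series C the CHH difference no longer passed (autosomes minus chromosome X 0.0012, adjusted p = 0.0694, same exact test). As reported it was 0.0010. It was 0.00044 with at least 8 rats per site (adjusted p = 0.0499, exact test) and 0.00058 with all 10 (adjusted p = 0.0217, exact test). CHG had 0.0220 ± 0.00076 on chromosome X, and its difference from the autosomes did not pass the test (exact sign-flip permutation test, adjusted p = 0.59), but passed over sites valued in all 10 rats (0.00064, adjusted p = 0.0449, same exact test).

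Neighbouring CpGs had similar ratios, and the similarity fell with distance. Over pairs of autosomal CpG sites, r per rat was 0.708 ± 0.051 (SD, n = 10 rats) at 1 bp, 0.615 ± 0.052 at 3 to 10 bp, 0.506 ± 0.067 at 51 to 200 bp, 0.361 ± 0.041 at over 200 to 1000 bp and 0.211 ± 0.047 at over 1000 to 5000 bp. Between 20775 and 48850 pairs per rat stood behind the bin of 11 to 50 bp. All 4399 autosomal pairs 1 bp apart enter here, whereas the strand comparison above used the 3983 pairs with no further CpG site 1 bp away. These correlations are descriptions, since each site enters many pairs and close sites can share reads. The rats of series A had the highest r at 51 to 200 bp, from 0.588 to 0.598, and the other rats lay between 0.428 and 0.516. The values were lower outside the CpG-dense windows. Without the 1% of windows with the most sites, r was 0.522 at 1 bp, 0.253 at 51 to 200 bp and 0.124 at over 1000 to 5000 bp, and with adjacent sites only the fall was not steady, with 0.137 at 51 to 200 bp, 0.168 at over 200 to 1000 bp and 0.0724 at over 1000 to 5000 bp.

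The deviation of a rat from the mean of a site was shared over shorter distances than the level itself. On autosomes, r of these CpG deviations was 0.220 ± 0.051 (SD, n = 10 rats) at 2 bp, 0.143 ± 0.030 at 11 to 50 bp and 0.0369 ± 0.026 at over 200 to 1000 bp. At 1 bp, where the sites lie on opposite strands, it was 0.016 ± 0.032. Close sites on the same strand can be covered by the same reads, so their counting error is shared. The part of shared reads in these values was not tested.

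Autosomal non-CpG sites had almost no such relation. For CHH, r was 0.0762 ± 0.021 at 1 bp, 0.0893 ± 0.021 at 2 bp and 0.00781 ± 0.0020 at 51 to 200 bp. For CHG it was 0.0287 ± 0.0051 at 3 to 10 bp and -0.00058 ± 0.0020 at 51 to 200 bp. On mitochondrial DNA, r between non-CpG neighbours was higher in most distance bins. CHH had an r of 0.576 ± 0.064 at 1 bp, 0.262 ± 0.064 at 3 to 10 bp and 0.149 ± 0.026 at 51 to 200 bp, and CHG had 0.467 ± 0.093 at 3 to 10 bp and 0.180 ± 0.033 at 51 to 200 bp. CHG sites 2 bp apart were an exception, with r of -0.024 ± 0.11 per rat over the 205 pairs described above. The mitochondrial CpG value was 0.317 ± 0.054 at 51 to 200 bp, and all 3 contexts were near 0 at over 1000 to 5000 bp.

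**Figure D4:**
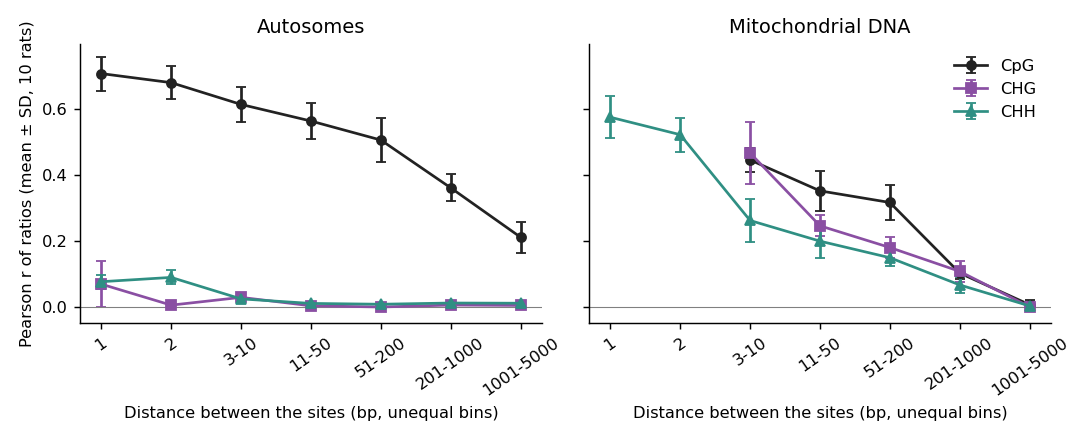
Pearson's r between the ratios of 2 sites of one context (y axis, mean ± SD over 10 young rats) by their distance in bp (x axis, bins of unequal width), on autosomes and mitochondrial DNA. Autosomal CpG falls from 0.708 to 0.211 while autosomal CHG and CHH stay near 0, and mitochondrial sites of all 3 contexts fall to about 0 in the last bin. Points with under 100 pairs in a rat are left out.

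Whether non-CpG levels follow CpG levels was examined in autosomal 10 kb windows with at least 5 sites of both contexts in the rat. They hardly did. Over 1004 to 2055 windows per rat, r of CpG with CHG was -0.0434 ± 0.020 (SD, n = 10 rats) and below 0 in all 10 rats. For CpG with CHH it was 0.0189 ± 0.014, from -0.0124 to 0.0328, over 1063 to 2157 windows. CHG and CHH levels were also nearly unrelated, with r of 0.0285 ± 0.014 over 3389 to 5994 windows. All 3 values rose in windows with at least 20 sites of each context, to 0.0568, 0.137 and 0.161, and the sign of CpG with CHG turned there.

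Averaged over sites, windows at the low end of CpG methylation had slightly lower CHG and CHH levels than windows at the high end. In the 32 windows with a mean CpG ratio of 0.3 or less, the CHG level was 0.0185 ± 0.0015 (SD, n = 10 rats), and in the 1501 windows at 0.7 or more it was 0.0217 ± 0.00056. The CHH level was 0.0140 ± 0.0015 in 33 low and 0.0169 ± 0.00027 in 1585 high windows. Both differences, 0.00319 ± 0.0013 for CHG and 0.00288 ± 0.0013 for CHH, had the same sign in 10 of 10 rats (exact sign-flip permutation test, 2-sided, p = 0.00195, adjusted p = 0.00195 over 2 comparisons). The same windows were used in every rat, so this test measures agreement between rats and not the spread over windows. The sizes of the differences depended on the settings, and each kept its sign and passed the exact test. Without the CHG and CHH sites over 0.5 they were 0.00179 and 0.00185, with cut-offs of 0.8 and 0.2 they were 0.00226 and 0.00143, and in 1 kb windows they were 0.0058 and 0.0069. The relation was not a steady rise: as window means, CHG was 0.0161 in the 5 windows at 0.1 CpG or less, 0.0195 in the 27 windows of 0.1 to 0.3, 0.0230 in the 785 windows of 0.3 to 0.7 CpG, 0.0209 in the 1457 windows of 0.7 to 0.9, and 0.0155 in the 44 windows at 0.9 or more. The medians of these 5 classes were 0.0150, 0.0197, 0.0198, 0.0178 and 0.0130, so that by the median the windows of 0.1 to 0.3 were above those of 0.7 to 0.9. For CHH the class medians were 0.0107, 0.0126, 0.0145, 0.0135 and 0.0112.

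**Figure D5:**
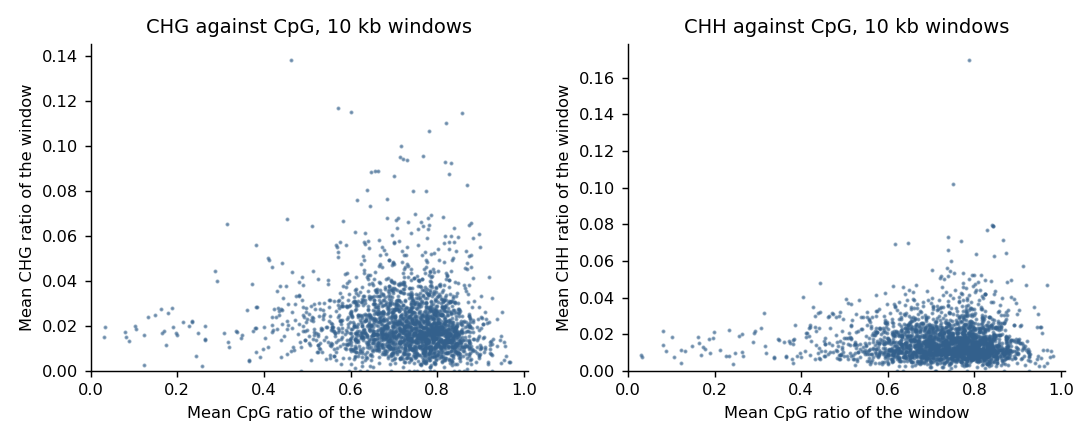
Mean CHG ratio (left) and mean CHH ratio (right) of autosomal 10 kb windows (y axis) against their mean CpG ratio (x axis), from site means over young rats, with 1 point per window. The clouds have no slope that the eye can follow, and only 32 (CHG) and 33 (CHH) windows have a CpG ratio of 0.3 or less.

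Over the 10 rats, 6 relations between whole-rat levels were computed over the means of all sites, and none passed the correction. Autosomal CpG level and the number of autosomal CpG sites had r = -0.749 (permutation test with 100000 resamples, p = 0.0123, adjusted p = 0.074; rho = -0.588, permutation p = 0.0813), and r = -0.768 without the 2 rats farthest from the median number of sites. Over sites valued in every rat it was -0.698 and passed the correction (permutation test, adjusted p = 0.0401), but for the share of sites above 0.1 the sign turned, with r = 0.447 (permutation test, adjusted p = 0.232). Autosomal and mitochondrial CHG had r = 0.119 (permutation p = 0.757; rho = 0.103, permutation p = 0.784) but r = 0.75 without the 2 farthest rats. Autosomal and mitochondrial CHH had r = -0.344 (permutation p = 0.332; rho = 0.164, permutation p = 0.657) but r = 0.693 without them. Both values also changed with the site set and the measure. With all rats and only the sites valued in each of them, r was 0.754 for CHG (permutation test, adjusted p = 0.0401) and 0.647 for CHH (adjusted p = 0.0504, permutation), and for the share of sites above 0.1 it was 0.740 and 0.710 (permutation test, adjusted p = 0.0301 and 0.0321). Autosomal CHG with CHH had r = 0.337 (permutation p = 0.343; rho = 0.467, permutation p = 0.177; r = 0.395 without 2 rats). CHH had r = -0.061 with CpG (permutation p = 0.863; rho = -0.030, permutation p = 0.946; r = 0.072 without 2 rats) and r = 0.021 with the number of CpG sites (permutation p = 0.951; rho = -0.333, permutation p = 0.346; r = -0.283 without 2 rats). Autosomal CHG with CHH and the number of CpG sites with CHH also passed under both of these settings, with r of 0.755 and -0.790 over sites valued in every rat (permutation test, adjusted p = 0.0304 for both). The identifier series hold 3 or 4 rats each, too few for a correlation within a series.

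CpG sites linked to genes were taken from the study's lists of sites related to age or cognition, of which only position, gene and annotated feature were used. The study chose these sites on the same rats, and no test was made. Of 615 listed sites, 182 had 5 or more young values. Of these, the 157 in introns had a mean ratio of 0.725 ± 0.19 (SD over sites), the 15 in exons 0.613 ± 0.30, the 5 at exon/intron boundaries 0.659 ± 0.12 and the 5 in promoters 0.329 ± 0.060. The promoter sites were the lowest group, but 4 of the 5 belong to 5S ribosomal RNA on chromosome 19 (positions 67048512 to 67048585), with means of 0.277 to 0.354 in 10 rats. This gene has many near-identical copies, so its reads are uncertain in origin.

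Of the 49 genes in 5 lists of neuronal function, 16 had a site with 5 or more young values, and all but 1 of these sites lie in introns. None of the 6 listed sites of the vesicle release genes had 5 young values.

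Genes of synaptic adhesion and axon guidance had 8 sites, with means from 0.504 to 0.884 and a median of 0.811. Epha5, an ephrin receptor that guides axons, had the highest mean of the list (chromosome 14, position 25465028), with 7 rats between 0.727 and 1. Nlgn1, a postsynaptic adhesion protein of excitatory synapses, had 0.5, 0.6, 0.857, 0.889 and 1 (chromosome 2, position 130811318). Cntnap5c, of the contactin-associated family, had the lowest mean (chromosome 13, position 12343070), with 0.143 in the lowest and 0.8 in the highest of 8 rats and a median of 0.613. Its rats covered most of the range.

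Ion channels and their partners had 4 sites, with means from 0.560 to 0.792. Nalcn, a sodium leak channel that sets resting excitability, had 0.571, 0.714, 0.8, 0.875 and 1 (chromosome 15, position 113313498). Fgf14, a partner of voltage-gated sodium channels, had the lowest mean of this list (chromosome 15, position 113815530), with values of 0.4, 0.4, 0.5, 0.6, 0.625 and 0.833. Signalling enzymes had 3 sites. Pde3b, a cyclic nucleotide phosphodiesterase, was high at 0.667, 0.75, 0.875, 1 and 1 (chromosome 1, position 191002687). Rock1, a kinase of the actin cytoskeleton, was the lowest of the 16 sites (chromosome 18, position 1371889): 7 of 8 rats lay between 0.0769 and 0.333, and 1 rat was at 0.8. The exonic site was in Ptk2, the focal adhesion kinase (chromosome 7, position 114498195), with 0.4, 0.5, 0.6, 0.6, 0.8 and 1.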

How the data were processed

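DNA methylation was measured by WGBS in the mPFC of 30 rats, and the 10 young rats were analysed. The authors trimmed reads with trimmomatic, applied a filter on unconverted bases with cscall, mapped to rn5 with BSMAP and called CpG, CHG and CHH sites with cscall (versions are not given in the sources used here). What this filter removed is not described further in the sources used here. The deposited values are methylation ratios, given as a fraction from 0 to 1, for sites with at least 5 reads in a rat and at least 3 rats per age group. Read counts per site were not used here, so no interval for counting error was computed. The depth per rat is unknown, and site numbers are given in its place.

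Sites with 5 or more young values were kept, and each rat was summarised by its mean. Differences within rats were tested with an exact sign-flip permutation test over 1024 arrangements with Benjamini-Hochberg adjustment. Pearson's r was computed per rat by distance (up to 5000 bp) and over 10 kb windows. Scripts were checked on simulated data. Named windows and genes are the 3 lowest and highest CpG windows, the 3 highest CHG and CHH windows, the lowest and highest autosomes, and listed sites of the study in 5 gene lists, of which 1 is not reported here. The members and lists were chosen with earlier results of these data known. The calls for aged impaired against aged unimpaired rats and the columns of group means were left out. Alternatives covered site coverage, clustering, dense windows, window size, rank measures and identifier series. Python 3.11.15 with numpy 2.4.6 and pandas 2.3.3 was used.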

Additional observations from a re-analysis of the deposited data

Results flagged for a closer look

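Of 84 sets of values over 4 to 10 young rats, 3 held a rat far from the others, and chance places about 1 in 20 sets there. The CpG of Rock1 had 1 rat at 0.8 while the next was at 0.333. The CpG of Ctnna3, an alpha-catenin, had 1 rat at 0.333 while the next was at 0.833. For autosomal CHG pairs 11 to 50 bp apart, r was -0.00299 in rat 10 and 0.00182 in the next lowest rat.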

How the results depend on the processing

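The differences between autosomes and mitochondrial DNA, those between contexts on mitochondrial DNA, and the differences between windows of high and low CpG level kept their direction and stayed past the threshold under all alternatives run for them. The cause was not tested for any change below. With sites valued in at least 3, at least 8 or all 10 young rats, the autosomal CpG level was 0.707, 0.696 and 0.691, and the CHH level 0.0165, 0.0154 and 0.0150. CHG was 0.0212 with all 10. With 1 site per cluster the levels were 0.708 for CpG, 0.0312 for CHG and 0.0278 for CHH. CpG was 0.723 without the densest windows. Medians over sites were 0.775 for CpG and 0 for CHG and CHH, which ended the differences of CHG from CHH on autosomes and of CHH from chromosome X. The share of CpG sites at 0.1 or less was 4.19%, 4.74% and 4.78% with at least 3, at least 8 and all 10 rats, 3.76% with 1 site per cluster, 4.75% with medians over rats and 4.76% without series A. The share at 0.9 or more was 18.5%, 11.8% and 9.81% in the 3 coverage settings, 17.7% with medians, 16.9% without series A and 17% without series C. For CHG, the share at 0.1 or less was 95.8% (at least 3 rats), 97.2% (all 10), 94.5% (1 site per cluster) and 95.7% (without series A). For CHH it was 96.9%, 97.9% and 95% in the first 3 of these.

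Autosomes minus chromosome X was -0.00517 for CpG and -0.00015 for CHH with 1 site per cluster, and -0.00362 for CpG without the densest windows. For CHG it was -0.00012 with at least 8 rats and 0.00064 with all 10, which passed the test (exact sign-flip permutation test, adjusted p = 0.0449). For CHH it was 0.0012 without series C, which no longer passed the test (exact sign-flip permutation test, adjusted p = 0.0694). The CpG r at 1 bp was 0.773 with all 10 rats, 0.581 as Spearman's rho, 0.522 without the densest windows and 0.864 for site means. At 51 to 200 bp it was 0.425 (rho), 0.137 (adjacent sites), 0.253 (without the densest windows) and 0.608 (site means). At over 1000 to 5000 bp it was 0.0724, 0.124 and 0.283 in the last 3 of these. For CHG at 51 to 200 bp it was -0.0032 with all 10 rats, 0.0384 as rho and -0.0027 without the densest windows. For CHH there it was 0.0336 as rho, -0.0073 for adjacent sites, 0.0048 without the densest windows and 0.0121 for site means.

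Over windows, CpG with CHG had r of -0.0065 in 1 kb windows, -0.0155 and 0.0568 with at least 10 and 20 sites, -0.0757 as rho and -0.0714 for site means. CpG with CHH had 0.0573, 0.0480, 0.137 and -0.0175 in the first 4 of these, and -0.0040 without CHG and CHH sites over 0.5. CHG with CHH had 0.0489, 0.0765, 0.161, 0.0940 and 0.0581 in the same order.

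Over rats, sites valued in all 10 gave r of 0.754 for autosomal with mitochondrial CHG, 0.647 for the CHH pair, 0.755 for autosomal CHG with CHH, 0.492 for CpG with CHH, -0.790 for the number of CpG sites with CHH and -0.698 for that number with CpG. Of these, 4 passed the correction where the reported values did not (permutation test, adjusted p of 0.0401, 0.0304, 0.0304 and 0.0401 for the CHG pair, CHG with CHH and the number with CHH and CpG). The share of sites above 0.1 gave 0.740, 0.710, 0.961, -0.747 for the number with CHH and 0.447 for the number with CpG. The first 4 passed (permutation test, adjusted p of 0.0301, 0.0321, 0.00036 and 0.0301), and the signs of the CHH pair and of both relations with the number turned. Without the 2 farthest rats, r was 0.693 for the CHH pair, 0.072 for CpG with CHH and -0.283 for the number with CHH.

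The settings for pairs were added after seeing the data. The CpG difference on autosomes was 0.0051 with at least 8 and 0.00063 with all 10 rats, 0.0047 without series A and 0.0042 without series C, and none of these passed the test. The CHG difference there was -0.0013, 0.0019 and -0.00010 in the first 3 of these, with the first 2 past the threshold in opposite directions (exact sign-flip permutation test, adjusted p = 0.0026 and 0.0104). On mitochondrial DNA the differences without series C were 0.0847 (CpG) and 0.0792 (CHG), each at the smallest p that 6 rats allow (exact sign-flip permutation test, p = 0.03125, adjusted p = 0.0625). The tested differences are paired within rats. With unknown depth, ratios near the minimum of 5 reads move in coarse steps, which limits single sites most. Among values of chromosome X, of the other distance bins and of the other shares, 120 alternatives moved by less than the SD over rats and 74 by more.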
